A study of Mus musculus with 13 samples.

Results

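Genes of major histocompatibility complex (MHC) class II antigen presentation were followed in RNA from the neurovasculature of 13 mice. The set holds 8 genes, matched by Ensembl identifier without its version to mouse symbols: *H2-Aa*, *H2-Ab1*, *H2-Eb1*, *Cd74*, *H2-DMa*, *H2-DMb1*, *Ciita* and *Cd86*, out of 47643 genes listed. All mice were male CD1 animals, an outbred stock, aged 8 to 10 weeks. The 4 sham-vehicle mice received vehicle in place of lipopolysaccharide (LPS) and of the inhibitor. The 5 LPS-vehicle mice were given *Salmonella enterica* Typhimurium LPS into the peritoneum, 3 mg/kg at 0, 6 and 24 h. The 4 LPS-CPD-4645 mice had the same LPS doses and, after each of them, 10 mg/kg of CPD-4645 under the skin. CPD-4645 inhibits monoacylglycerol lipase (MAGL), the enzyme that hydrolyses the endocannabinoid 2-arachidonoylglycerol, and in part the related brain hydrolases ABHD6 and FAAH. Tissue was taken at 28 h from brains that were not perfused, so blood within the vessels was part of the sample. No group received CPD-4645 without LPS.

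MHC class II molecules display peptides from engulfed proteins to CD4+ T cells. An alpha and a beta chain pair in the endoplasmic reticulum with the invariant chain, which keeps the groove closed, and in endosomes proteases cut that chain down until the DM chaperone exchanges its last fragment for a peptide. The chain genes are switched on through a short promoter module, the X and Y boxes, to which the RFX and NF-Y factors bind and to which the coactivator CIITA is recruited. Dendritic cells, B cells and macrophages carry class II at high levels, and in healthy brain it is found mainly on cells of the borders and around vessels.

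The promoter module is shown for *H2-Eb1*, where it was found whole, and for *H2-Aa*, where only a Y box matched within the bases shown. Both stretches are the 120 bases before the RefSeq start on GRCm38.p6, 5′ to 3′ on the gene's strand, with the paired boxes of *H2-Eb1* and the Y box of *H2-Aa* in capitals.
*H2-Eb1*, plus strand, chr17:34305747-34305866: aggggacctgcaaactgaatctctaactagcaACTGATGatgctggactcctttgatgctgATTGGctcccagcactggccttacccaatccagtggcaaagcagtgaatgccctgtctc
*H2-Aa*, minus strand, chr17:34287824-34287943: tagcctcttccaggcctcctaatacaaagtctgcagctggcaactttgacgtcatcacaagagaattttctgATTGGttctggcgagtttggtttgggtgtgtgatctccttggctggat

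Motifs were searched on both strands in the 250 bases before each RefSeq start, and 4 of the 8 genes had an entry that was used here. An X core was spelled ACNNATG and a Y box ATTGG, and a pair needed both on 1 strand with 15 to 30 bases between them. *H2-Eb1* held a pair with a gap of 22 bases, from base 88 to base 55 before the start, and a further Y box on the opposite strand at bases 35 to 31, left in lower case above. *H2-DMb1* held the same letters, ACTGATG and ATTGG, with a gap of 23 bases, from base 91 to base 57. Of all 32851 promoters in the RefSeq table, 152 (0.463%) held such a pair, whereas the X core alone was in 26.7% and the Y box alone in 33.8%. In *H2-Aa* a Y box lay at bases 48 to 44 before the start, and the X core matched only on the opposite strand, at bases 232 to 226. For *H2-DMa* only the listed promoters were searched, so any other start of the gene was not examined. The first of them held none of the motifs, and the second held a Y box at bases 198 to 194. The bases that follow the second start were not found in a GENCODE transcript of the gene. None of these promoters held GAAANNGAA, the core of an interferon-stimulated element (7.13% of all promoters), or TTCNNNGAA, the gamma-activated site (7.02%). Among the 36 members and pathway genes with an entry used here, 6 held the pair: *H2-Eb1*, *H2-DMb1*, *H2-DMb2*, *H2-Eb2*, *H2-Ob* and *Icosl*. These matches describe letters in the reference and not binding in these mice.

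Libraries held 7813559 to 55133373 counts (median 26989885), and LPS-vehicle mouse 3 and then mouse 1 of the LPS-CPD-4645 group (12548404) had the fewest. Levels are given as CPM, the gene's counts over the library total after TMM scaling, times 1000000. To pass the threshold, a gene had to change by at least 2-fold with a p, adjusted by Benjamini and Hochberg's method over the 17285 genes tested, of 0.05 or less in 1 edgeR quasi-likelihood fit of all mice. The preparation is labelled neurovasculature. Summed over each list, endothelial markers gave 190 to 441 CPM, pericyte markers 166 to 328, astrocyte markers 983 to 1792 and neuronal markers 6672 to 9103, so that neuronal RNA was present in every library. Sums over unlike genes do not give shares of cells. Fewer cells of a type and less RNA per cell cannot be told apart in such bulk samples. Mitochondrial genes took 6.47% to 12.7% of the counts in sham-vehicle mice, the most in mouse 4, against 4.84% to 7.05% after LPS and 3.97% to 8.17% with CPD-4645 added, and their part in the differences from sham-vehicle was not tested.

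Class II transcripts were scarce in this tissue. *Ciita*, the master coactivator of class II genes, gave 4 reads in the whole experiment: 1 in sham-vehicle mouse 1, 1 in LPS-vehicle mouse 2 and 2 in LPS-CPD-4645 mouse 2. It was at 0 in the other 10 libraries, where a count of 0 allows up to 3 reads, or 0.0821 to 0.378 CPM, for counting error only. It was therefore not tested, and a change was not detectable at this depth. *Ciita* (GRCm38, chromosome 16, 10480059 to 10528418, plus strand) overlaps *Dexi* on the other strand, which had 29165 reads.

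The other 7 genes were tested. Per kilobase of annotated exon, the order of the mean levels in sham-vehicle mice was *H2-DMa* (5.05 ± 0.42 CPM per kb, SD, n = 4), *Cd74* (2.80 ± 0.56), *H2-Ab1* (1.07 ± 0.35), *H2-Eb1* (0.725 ± 0.083), *H2-Aa* (0.679 ± 0.204), *Cd86* (0.506 ± 0.120) and *H2-DMb1* (0.476 ± 0.101). *H2-DMa* and *Cd74* stood apart from each other and from the rest. From *H2-Ab1* downward, the means of neighbours differed by less than the sum of their SDs. *H2-DMa* and *H2-DMb1* encode paired chains of the DM chaperone, and per kb *H2-DMa* was the higher in every group. That contrast does not take in the other beta copy, *H2-DMb2*, or the overlap of *H2-DMa* with *Brd2*, both given below.

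**Figure D1:**
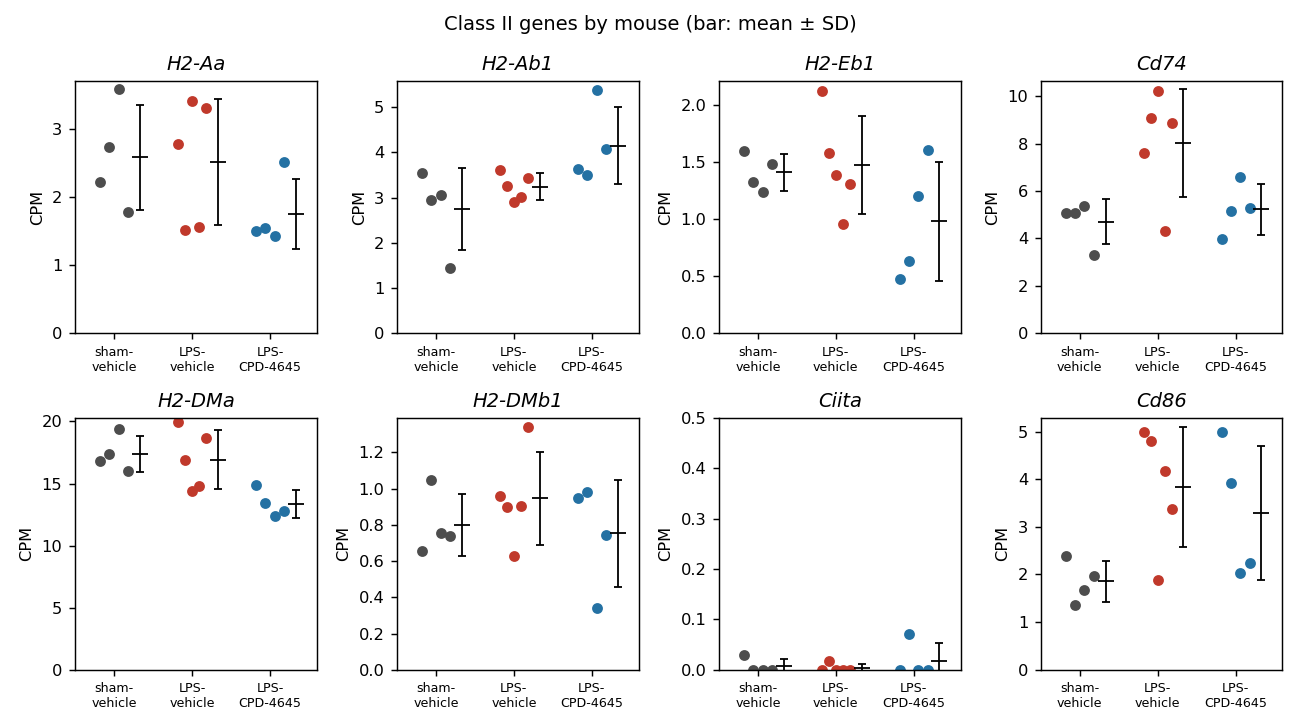
CPM of the 8 class II genes in each mouse, 1 panel per gene with its own axis starting at 0. Points are mice of the sham-vehicle (n = 4), LPS-vehicle (n = 5) and LPS-CPD-4645 (n = 4) groups, and bars are the mean ± SD. *Cd74* lay above all other mice in 4 of 5 LPS-vehicle mice, *H2-DMa* was lower in LPS-CPD-4645 than in sham-vehicle mice, and *Ciita* was at or near 0 throughout.

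The comparison of LPS-vehicle with sham-vehicle mice asked what systemic LPS did to these genes. *Cd86* rose 2.11-fold and was the only one of the 7 tested to pass the threshold, while *Cd74* was 1.68-fold higher without reaching 2-fold. The 3 chain genes and both DM genes lay within 0.27 of 0 on the log2 scale. Over all genes tested, 4.68% passed upward and 0.995% downward, and at an adjusted p alone 11.1% were higher and 8.86% lower. At an unadjusted p under 0.05, 2 of the 7 were higher and 0 lower, against 16.9% and 15.4% of all genes. The median log2 fold change was 0.24 over the 7 genes and -0.00065 over all genes.

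*Cd86*, which encodes the costimulatory ligand of CD28 on T cells (chromosome 16, 36603869 to 36666081, minus strand), measured 2.40, 1.37, 1.67 and 1.98 CPM in sham-vehicle mice 1 to 4. It measured 4.98, 4.81, 1.89, 4.16 and 3.37 CPM in LPS-vehicle mice 1 to 5. All but LPS-vehicle mouse 3, whose value rests on 15 reads, lay above every sham-vehicle mouse. The log2 fold change was 1.08 (SE 0.32, adjusted p = 0.0219, edgeR). The call was lost on leaving out sham-vehicle mouse 2 (0.96, adjusted p = 0.0603), sham-vehicle mouse 3 (1.03, 0.0622), LPS-vehicle mouse 1 (0.98, 0.0557) or LPS-vehicle mouse 2 (0.99, 0.0498). Without the pair of libraries of lowest total, *Cd86* was 1.22 higher on the log2 scale (adjusted p = 0.00513).

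*Cd74*, the invariant chain (chromosome 18, 60803848 to 60812652, plus strand), measured 5.05, 5.07, 5.38 and 3.31 CPM in sham-vehicle mice. It measured 7.59, 9.09, 10.2, 4.30 and 8.88 CPM in LPS-vehicle mice, so that 4 of 5 exceeded every sham-vehicle value and LPS-vehicle mouse 4 lay among them. On the log2 scale it was higher by 0.75 (SE 0.24, adjusted p = 0.0313). The adjusted p was at most 0.05 in 15 of 22 alternatives, ranging from 0.00407 to 0.108. It exceeded 0.05 on leaving out sham-vehicle mouse 1 (0.0565) or 4 (0.108) or LPS-vehicle mouse 2 (0.066), 3 (0.0628) or 5 (0.0595). It was 0.071 with limma-voom and 0.0616 without the libraries of lowest total.

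For the classical chain genes, the intervals of the fold change spanned 0. *H2-Aa*, the alpha chain of the I-A molecule (chromosome 17, 34282744 to 34287823, minus strand), measured 2.22, 2.73, 3.58 and 1.78 CPM in sham-vehicle and 2.78, 1.51, 3.40, 1.56 and 3.31 CPM in LPS-vehicle mice. LPS-vehicle mice 2 and 4 lay below every sham-vehicle mouse and the other 3 within their range, with a log2 fold change of -0.07 (95% interval -0.74 to 0.59, adjusted p = 0.906). *H2-Ab1*, its beta chain (chromosome 17, 34257689 to 34269419, plus strand), measured 3.54, 2.94, 3.07 and 1.43 CPM in sham-vehicle mice against 3.61, 3.26, 2.90, 3.01 and 3.43 CPM after LPS. Its log2 fold change was 0.24 (-0.28 to 0.75, adjusted p = 0.559). *H2-Eb1*, the beta chain of I-E (chromosome 17, 34305867 to 34316674, plus strand), measured 1.60, 1.33, 1.23 and 1.48 CPM against 2.13, 1.58, 1.39, 0.958 and 1.31 CPM, and its log2 fold change was 0.06 (-0.70 to 0.83, adjusted p = 0.931). The upper ends of the 3 intervals lay under a log2 fold change of 1, a doubling, and equality was not shown.

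*H2-DMa*, the alpha chain of the peptide-exchange chaperone (chromosome 17, 34119541 to 34139101, plus strand), measured 16.8, 17.4, 19.4 and 16.0 CPM in sham-vehicle and 19.9, 16.9, 14.4, 14.8 and 18.7 CPM in LPS-vehicle mice. The log2 fold change was -0.03 (-0.29 to 0.22, adjusted p = 0.884), the narrowest interval of the set. *H2-DMb1*, a beta chain of that chaperone (chromosome 17, 34153072 to 34160230, plus strand), ran from 0.656 to 1.05 CPM in sham-vehicle and from 0.630 to 1.34 CPM in LPS-vehicle mice. Its log2 fold change was 0.27 (-0.58 to 1.13, adjusted p = 0.70). Reads of *H2-DMb1* may also match its near-identical copy *H2-DMb2*, and reads that match both may be counted for neither. *H2-DMb2* held 0 reads in sham-vehicle mouse 2 and up to 1.35 CPM elsewhere. Summed over both copies, the level was 1.48 ± 0.48 CPM (SD, n = 4) in sham-vehicle, 1.44 ± 0.43 (n = 5) in LPS-vehicle and 1.75 ± 0.56 (n = 4) in LPS-CPD-4645 mice.

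The comparison of LPS-CPD-4645 with LPS-vehicle mice asked what CPD-4645 did under LPS. Of the 7 genes, 0 passed the threshold with edgeR, limma-voom or DESeq2, where 1.7% of all genes passed upward and 4.19% downward. *H2-DMa* was lower at an adjusted p of at most 0.05, as were 16.4% of all genes (14.1% were higher). At an unadjusted p under 0.05, 2 of the 7 were lower with edgeR or DESeq2, *H2-DMa* and *Cd74* (1 with limma-voom), where 22% of all genes were lower and 19.4% higher. The median log2 fold change of the 7 was -0.37, against -0.023 over all genes.

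*H2-DMa* measured 14.9, 13.4, 12.3 and 12.8 CPM in LPS-CPD-4645 mice 1 to 4, and mice 2 to 4 lay below every LPS-vehicle mouse. The log2 fold change was -0.35 (SE 0.13, adjusted p = 0.041), a level 0.783 times that of LPS-vehicle mice. The adjusted p stayed at or under 0.05 in 9 of 22 alternatives and ranged from 0.0198 to 0.11. Of the 13 fits without a mouse, it held only in those without LPS-CPD-4645 mouse 1 (0.0399) and LPS-vehicle mouse 3 (0.0226) or 4 (0.0301), and ran from 0.0504 to 0.11 in the rest. On the reference the gene overlaps *Brd2*, a bromodomain gene on the other strand with 65090 reads, so part of its level is uncertain. *Brd2* itself was higher with CPD-4645, by 0.55 (SE 0.08, adjusted p = 0.000122). The part of the overlap in the *H2-DMa* difference was not tested.

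*Cd74* measured 3.95, 5.14, 6.59 and 5.26 CPM under CPD-4645. These values overlapped the sham-vehicle range and lay below all LPS-vehicle mice except mouse 4. The log2 fold change was -0.59 (95% interval -1.09 to -0.10, adjusted p = 0.0656), and the adjusted p ran from 0.0111 to 0.251 over the alternatives. The highest was that without the libraries of lowest total, where the log2 fold change was -0.40.

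*H2-Aa* and *H2-Ab1*, whose products pair, stood on opposite sides of 0. *H2-Aa* measured 1.5, 1.54, 1.43 and 2.51 CPM with CPD-4645 (log2 fold change -0.48, -1.17 to 0.20, adjusted p = 0.279). *H2-Ab1* measured 3.64, 3.50, 5.38 and 4.08 CPM (0.35, -0.16 to 0.86, adjusted p = 0.29). The difference between the chains was not tested. *H2-Eb1* measured 0.474, 0.630, 1.20 and 1.61 CPM, the lowest value resting on 6 reads of LPS-CPD-4645 mouse 1 (log2 fold change -0.56, adjusted p = 0.276). *H2-DMb1* ran from 0.339 to 0.979 CPM (-0.37, adjusted p = 0.526).

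*Cd86* measured 4.98, 3.92, 2.03 and 2.24 CPM, a spread that covered most of the LPS-vehicle range. The log2 fold change was -0.28 (95% interval -0.93 to 0.37, adjusted p = 0.529).

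**Figure D2:**
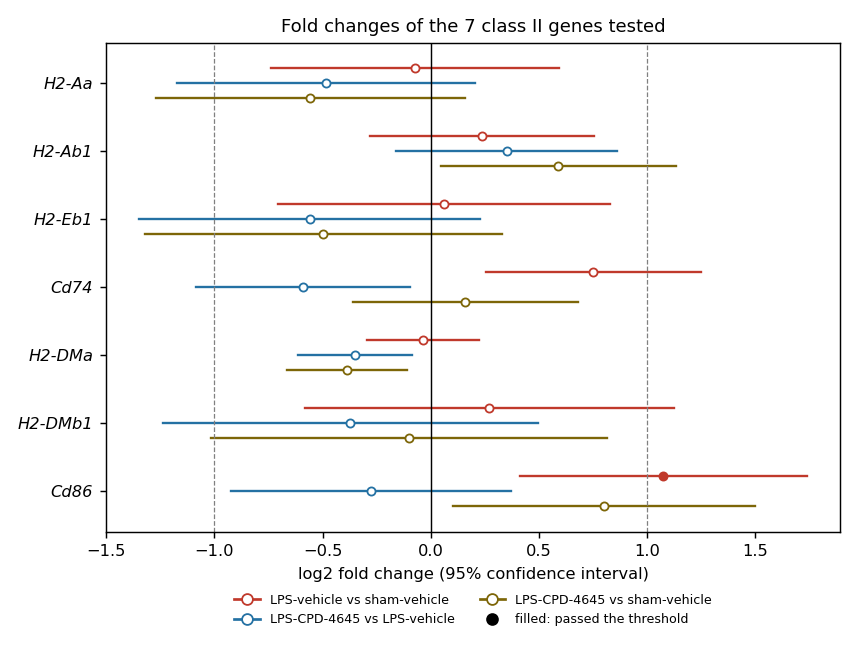
Log2 fold changes of the 7 class II genes tested, with 95% confidence intervals, in the 3 comparisons (colours). Filled points passed the threshold of a 2-fold change (dashed lines) and an adjusted p of at most 0.05. Only *Cd86* after LPS is filled, and its interval is wider than that of *H2-DMa*.

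The comparison of LPS-CPD-4645 with sham-vehicle mice uses mice of both earlier comparisons, so its values are not independent of theirs. Of the 7 genes, 0 passed with edgeR, limma-voom or DESeq2, where 6.11% of all genes passed upward and 4.98% downward. At an adjusted p alone 19.5% of genes were higher and 19.3% lower, and *H2-DMa* was among the latter. At an unadjusted p under 0.05, *H2-DMa* was lower while *H2-Ab1* and *Cd86* were higher (1 lower and 1 higher with limma-voom), where 24% of all genes were lower and 23.6% higher. The median log2 fold change of the 7 was -0.10, against -0.014 over all genes.

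Every LPS-CPD-4645 mouse had less *H2-DMa* than every sham-vehicle mouse (14.9 CPM at most against 16.0 at least). On the log2 scale the difference was -0.39 (SE 0.13, adjusted p = 0.0264), with an adjusted p from 0.0174 to 0.0956 and at most 0.05 in 16 of 22 alternatives. It was above 0.05 without sham-vehicle mouse 3 (0.0956) and without LPS-CPD-4645 mouse 2 (0.053), 3 (0.0727) or 4 (0.0721), and also with library totals only (0.0537) and with no filter on low counts (0.0516). *H2-Ab1* was 0.59 above sham-vehicle on the log2 scale (95% interval 0.05 to 1.13, adjusted p = 0.0793) and *Cd86* 0.80 (adjusted p = 0.0652), and for both the groups overlapped. *H2-Aa* (-0.56, adjusted p = 0.207), *H2-Eb1* (-0.50, 0.338), *Cd74* (0.16, 0.64) and *H2-DMb1* (-0.10, 0.881) did not pass either.

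Around the class II molecules, 41 genes of the pathway were matched and 35 tested, in lists for other chains, lysosomal processing, promoter factors, inducers of *Ciita*, turnover and costimulation. After LPS, 8 passed upward and 0 downward with edgeR or DESeq2 (9 and 0 with limma-voom), where 4.68% and 0.995% of all genes did, and a further 5 were higher by under 2-fold at an adjusted p of at most 0.05, as were 1106 of the 17285 genes. At an unadjusted p under 0.05, 14 were higher and 1 was lower, against 16.9% and 15.4% of all genes, and the median log2 fold change was 0.22. Under CPD-4645 against LPS-vehicle, 0 passed upward and 2 downward with edgeR or DESeq2 (1 and 2 with limma-voom), beside 1.7% and 4.19% of all genes, with 7 higher and 5 lower by under 2-fold at an adjusted p of at most 0.05, as were 2138 and 2114 of the 17285 genes. Both downward counts are near their background. At an unadjusted p under 0.05, 9 were higher and 8 lower, beside 19.4% and 22% of all genes, with a median of 0.039. Against sham-vehicle, LPS-CPD-4645 mice had 7 past the threshold upward and 1 downward (7 and 0 with DESeq2), beside 6.11% and 4.98% of all genes, with a median of 0.25.

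Among 8 lysosomal genes, *Ctss*, the cathepsin that trims the invariant chain, rose after LPS. It measured 55.8, 42.0, 48.7 and 26.1 CPM in sham-vehicle and 98.2, 107, 62.8, 83.9 and 107 CPM in LPS-vehicle mice, with no overlap. The rise was 1.09 on the log2 scale (SE 0.20, adjusted p = 0.000768), and it was 0.92, under 2-fold, without sham-vehicle mouse 4. *Ifi30*, a lysosomal thiol reductase, was 0.97 higher after LPS (adjusted p = 0.00495) and measured 23.1, 22.7, 15 and 21.6 CPM under CPD-4645, above every sham-vehicle mouse (4.05 to 7.45). Its rise over sham-vehicle was 1.75 (SE 0.24, adjusted p = 1.82e-05). Against LPS-vehicle, *Ctsz* (-0.60, adjusted p = 0.000536) and *Ctsh* (-0.72, 0.0137) were lower and *Ctsl* (0.52, 2.47e-05) and *Ifi30* (0.78, 0.0108) higher, all under 2-fold. *Ctsz* overlaps *Nelfcd* on the other strand.

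The log2 fold changes of the 7 genes for factors of the X and Y boxes lay between -0.16 (*Creb1*) and 0.24 (*Nfyc*) after LPS, with adjusted p from 0.166 upward. *Nfya*, the NF-Y subunit that contacts the Y box (chromosome 17, 48386885 to 48409906, minus strand), fell under CPD-4645. It measured 19.2, 18.2, 22.6 and 23.4 CPM in sham-vehicle, 27.7, 23.0, 24.4, 23.6 and 22.6 CPM in LPS-vehicle and 9.88, 8.08, 13.3 and 10.2 CPM in LPS-CPD-4645 mice. All LPS-CPD-4645 mice lay below all others. Its log2 fold change was -1.22 against LPS-vehicle (SE 0.14, adjusted p = 1.21e-05) and -1.0 against sham-vehicle (SE 0.15, adjusted p = 3.53e-05). The latter lay at the 2-fold limit and dropped under it with DESeq2 (-0.99), with its size factors (-0.99), with library totals only (-0.97) and without the libraries of lowest total (-0.98). It also did so without sham-vehicle mouse 3 (-0.95) or 4 (-0.93) and without LPS-CPD-4645 mouse 1 (-0.97), 2 (-0.90) or 4 (-0.98). The other NF-Y subunits differed by 0.33 (*Nfyb*, adjusted p = 0.00301) and -0.16 (*Nfyc*, 0.324) against LPS-vehicle. Of the RFX complex, *Rfxap* was 0.53 higher (adjusted p = 0.000167), *Rfxank* 0.60 lower on the log2 scale (-0.60, 0.00474) and *Rfx5* at 0.01 (0.954). *Rfxank* overlaps *Nr2c2ap* on the other strand.

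Of the inducers of *Ciita* and of class II genes, 3 of 9 tested rose after LPS, where 4.68% of all genes did. *Irf1*, a target of interferon signalling, measured 8.05 to 9.45 CPM in sham-vehicle mice and 43.9, 53.3, 49.9, 17.5 and 17.9 CPM in LPS-vehicle mice, with no overlap (2.05, SE 0.31, adjusted p = 0.000112). It remained higher than sham-vehicle under CPD-4645 (2.27, adjusted p = 2.94e-05). *Spi1* (1.70, adjusted p = 0.000293) and *Irf8* (1.03, adjusted p = 0.000709), both factors of myeloid cells, rose too. *Irf8* was under 2-fold without sham-vehicle mouse 4 (0.97), LPS-vehicle mouse 1 (0.95) or LPS-vehicle mouse 2 (0.95). Over sham-vehicle, *Spi1* (1.71, adjusted p = 0.000191) and *Irf8* (1.49, 1.49e-05) rose in LPS-CPD-4645 mice as well. Against LPS-vehicle none of the 9 passed, and at an adjusted p alone *Ifngr2* (-0.48, adjusted p = 0.000798) and *Irf2* (-0.48, 0.00344) were lower and *Jak1* (0.20, 0.0241) higher. *Ifng*, the cytokine that induces *Ciita* most strongly, gave 3 reads in all, each in LPS-CPD-4645 mouse 1.

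**Figure D3:**
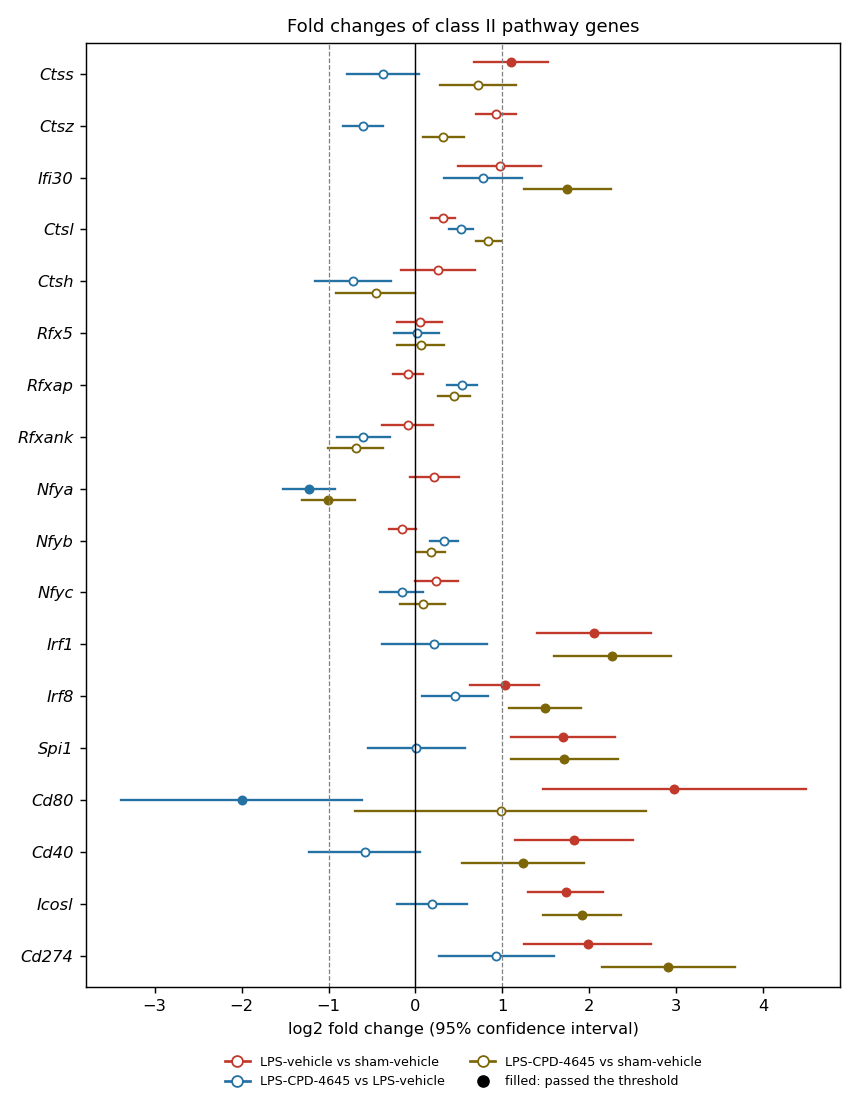
Log2 fold changes with 95% confidence intervals of 18 class II pathway genes in the 3 comparisons (colours). Filled points passed the threshold, with dashed lines at 2-fold. *Irf1*, *Irf8*, *Spi1*, *Cd40*, *Icosl* and *Cd274* lie to the right of 2-fold in both comparisons with sham-vehicle, and *Nfya* lies to the left only where LPS-CPD-4645 mice are compared.

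Of the costimulation list, 4 of 7 genes tested rose after LPS (4.68% of all genes did), all of them ligands or receptors on presenting cells. *Cd80*, the other ligand of CD28, had 1, 4, 2 and 3 reads in sham-vehicle mice and 21, 69, 10, 13 and 20 reads in LPS-vehicle mice (log2 fold change 2.98, SE 0.72, adjusted p = 0.00663). With 0, 11, 5 and 4 reads in LPS-CPD-4645 mice it fell against LPS-vehicle (-2.0, SE 0.66, adjusted p = 0.0289). That call was lost without filtering (adjusted p = 0.0505), without LPS-vehicle mouse 2 (0.0738), without LPS-CPD-4645 mouse 1 (0.0637), 3 (0.0646) or 4 (0.0811) and without the libraries of lowest total (0.0892). *Cd40*, through which T cells license presenting cells, rose after LPS by 1.82 (SE 0.32, adjusted p = 0.000499), from 1.09 to 1.28 CPM in sham-vehicle to 2.06 to 6.43 CPM. *Icosl*, the ligand of ICOS, rose by 1.73 (SE 0.21, adjusted p = 7.66e-06), and *Cd274*, which encodes PD-L1, by 1.98 (SE 0.35, adjusted p = 0.000491). Over sham-vehicle, all 3 rose in LPS-CPD-4645 mice as well (*Cd40* 1.24, *Icosl* 1.92, *Cd274* 2.91). *Cd274* measured 29.6, 38.3, 21.4 and 15.6 CPM there against 17.8, 18.4, 19.2, 4.93 and 9.33 CPM in LPS-vehicle mice (0.93, adjusted p = 0.0325, under 2-fold).

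Of the 5 other chain genes, 2 were kept by the filter on low counts and tested. *H2-Eb2* had 10 reads in all and the *H2-Ea-ps* entry, which stands at the I-E alpha locus, had 3. *H2-DMb2* had 254 reads and did not pass in any comparison (-0.40, 0.92 and 0.52 on the log2 scale). *H2-Oa* and *H2-Ob* encode the chains of DO, which inhibits DM. *H2-Oa* had 70 reads and did not pass either (-0.08, 0.88 and 0.80). *H2-Ob*, with 104 reads, was not tested. It held 13, 29, 11 and 4 reads in sham-vehicle mice, 1, 23, 0, 2 and 11 in LPS-vehicle mice and 2, 3, 5 and 0 in LPS-CPD-4645 mice, so mouse 2 gave the most in each of the vehicle groups.

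Markers were also read for the cells that usually carry class II. Of the dendritic cell list, 2 of 7 genes were tested and its sum was 22 to 23.9 CPM in sham-vehicle, 19.1 to 23.6 in LPS-vehicle and 18.9 to 19.7 in LPS-CPD-4645 mice. The sum was thus lower in every LPS-CPD-4645 mouse than in every sham-vehicle mouse, and *Flt3* was lower against LPS-vehicle at an adjusted p alone (-0.34, adjusted p = 0.0479). Nearly all of that was *Flt3* and *Zbtb46*, which other brain cells may also express, while *Xcr1* was at 0 in all 13 libraries and *Clec9a* had 1 read. The B cell list had 2 of 5 genes tested, neither past the threshold, with sums of 1.37 to 2.74, 0.57 to 1.61 and 0.16 to 1.96 CPM, and *Ms4a1* was at 0 in 11 libraries. Of the border macrophage list, 3 of 6 tested genes rose after LPS (4.68% of all genes) and 2 fell under CPD-4645 (4.19%), with sums of 6.23 to 7.93, 7.76 to 19.3 and 4.37 to 7.67 CPM. Of the microglia list, 3 of 7 fell past the threshold after LPS (0.995% of all genes did). Under CPD-4645 against LPS-vehicle, 1 of 7, *Siglech*, was higher past the threshold (1.7% of all genes). Another 1 was lower there at an adjusted p alone, as were 16.4% of all genes. Against sham-vehicle, 4 of 7 were lower past the threshold in LPS-CPD-4645 mice (4.98% of all genes). The sums of the microglia list were 182 to 240, 115 to 218 and 120 to 145 CPM.

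Markers of blood cells were read in the same comparisons, in which 4.68% of all genes rose after LPS and 4.19% fell under CPD-4645. All 5 tested monocyte genes rose after LPS and 3 fell under CPD-4645, with sums of 6.22 to 12, 22.9 to 84.8 and 10.2 to 16.1 CPM. All 6 tested neutrophil genes rose after LPS and all 6 fell under CPD-4645, with sums of 1.23 to 5.33, 62.0 to 268 and 7.04 to 26.9 CPM. The 4 erythrocyte genes tested were all lower after LPS at an adjusted p alone, as were 8.86% of all genes (median log2 fold change -0.90), with sums of 468 to 957, 239 to 460 and 325 to 705 CPM, and 0 reached that level in LPS-CPD-4645 mice against either group. The T cell list had 2 of 6 genes tested, neither past the threshold, with sums of 2.09 to 4.54, 4.17 to 5.36 and 3.24 to 5.12 CPM. Of the tissue lists, endothelial sums were 190 to 305, 211 to 441 and 225 to 308 CPM, and choroid plexus sums 336 to 712, 166 to 372 and 239 to 779 CPM. Astrocyte sums were 983 to 1287, 1385 to 1792 and 1272.5 to 1716 CPM, and pericyte sums 219 to 328, 166 to 281 and 195 to 261 CPM. Neuronal sums were 7815 to 9091, 6672 to 7454 and 6977 to 9103 CPM. Oligodendrocyte sums were 4095 to 6023, 2958.5 to 3886 and 3425 to 4452 CPM. Past the threshold, 1 endothelial gene of 6 rose and 1 fell after LPS and 2 of 5 choroid plexus genes fell (0.995% of all genes fell). Under CPD-4645 against LPS-vehicle, 1 of 5 choroid plexus genes was higher past the threshold (1.7% of all genes). In that comparison 3 endothelial genes were lower at an adjusted p alone, as were 16.4% of all genes. The part of these cells in the class II values was not tested.

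**Figure D4:**
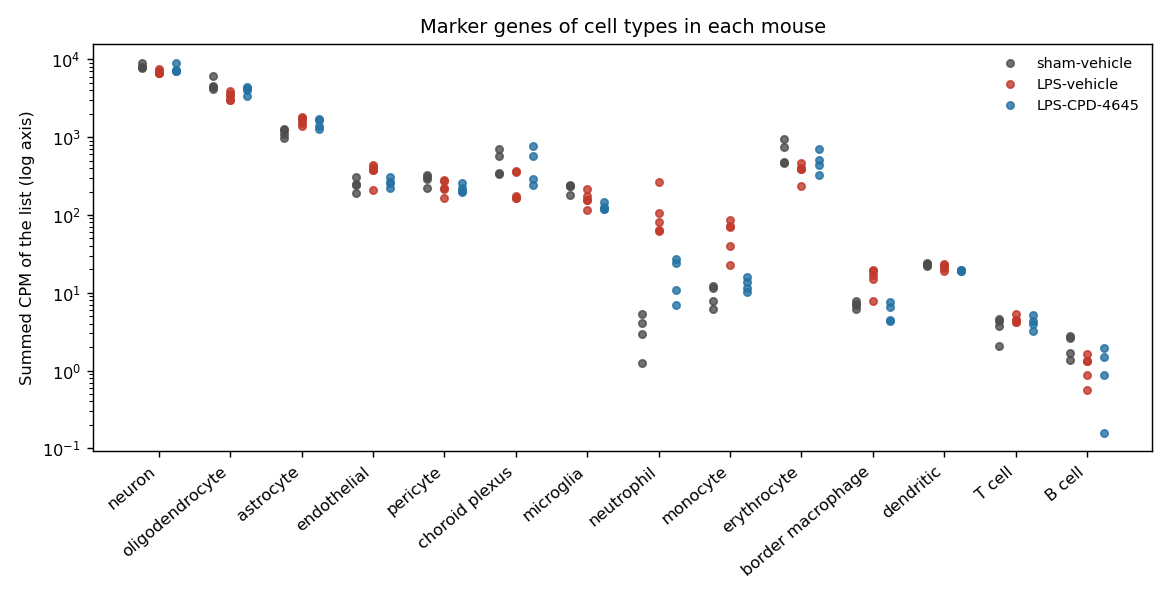
Summed CPM of 14 marker lists in each mouse on a log axis, with colours for the 3 groups. Neutrophil and monocyte sums stand above sham-vehicle in all 5 LPS-vehicle mice and lie lower in LPS-CPD-4645 mice, while B cell sums overlap between all groups and dendritic sums are lower in every LPS-CPD-4645 than in every sham-vehicle mouse.

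As a description, 14814 genes whose mean reached 1 CPM were ranked by the Pearson correlation, over the 13 mice, of their log2 CPM with the mean standardized level of *H2-Aa*, *H2-Ab1*, *H2-Eb1* and *Cd74*. That level was lowest in sham-vehicle mouse 4 and LPS-CPD-4645 mouse 1 and highest in LPS-vehicle mouse 1. The 10 genes most alike were *Plekhn1* (r = 0.85), *Acvr2b* (0.83), *Kcnh3* (0.80), *Fam57b* (0.77), *Rbck1* (0.75), *Mpv17l2* (0.75), *Gm37711* (0.75), *Apex2* (0.75), *Gm14169* (0.75) and *Gm12751* (0.75). None of them is a member of the pathway or marker lists, and *H2-Eb1* had as few as 6 reads in a library.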

How the data were processed

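Stranded poly(A) libraries from isolated neurovasculature were sequenced on a NextSeq 500, 1 library per mouse. The authors used STAR 2.5.2a both to align reads to GRCm38 and to count them for each gene of the basic GENCODE M9 annotation, and the counts were deposited as whole numbers, not normalized. The submitters' processing notes also name bcl2fastq 2.15.0.4. The strand setting of these counts is not given in the sources used here. Where genes overlap on opposite strands, reads may therefore be lost or counted for the wrong gene. The reference is that of C57BL/6J, and CD1 mice may carry other alleles at the polymorphic class II genes, whose reads could then be lost. Groups and replicate numbers were taken from the sample titles.

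Of 47643 identifiers, 47224 were found in GENCODE M21, also on GRCm38. The 8 members and all gene lists were chosen with earlier results of these data known. Genes were kept by filterByExpr (minimum count 10, minimum total 15), which left 17285 of 27934 genes with any count. They were scaled by TMM (factors 0.908 to 1.08) and tested with edgeR 4.0.16 in R 4.3.3, in 1 quasi-likelihood fit of the 3 groups at a common dispersion of 0.0334. The threshold of an adjusted p of 0.05 and 2-fold is the study's, whose own test, limma-voom (limma 3.58.1), was an alternative, as were DESeq2 1.42.0, other scalings and filters, the 2 groups alone, a replicate block and each mouse left out. Exon lengths are the union of all annotated transcripts, so levels per kb are lower limits for genes with long rare isoforms. Of the 44 pathway symbols listed, 41 matched, and a further pathway gene is not reported here. Named genes are the members, pathway genes past the threshold in any comparison, *H2-DMb2* and the I-E alpha entry, and the 10 genes most alike, with marker genes named for their levels and genes that overlap a named gene. *Creb1*, *Ctsl*, *Ctsz*, *Ctsh*, *Nfyb*, *Nfyc*, the RFX genes, *Ifng*, *Ifngr2*, *Irf2*, *Jak1*, *H2-Eb2*, *H2-Oa*, *H2-Ob*, *Flt3*, *Siglech* and the overlapping genes were named after their values were seen. Promoters are those of RefSeq on GRCm38.p6, and some entries are not used here. Replicate pairs differed by 9.26 to 56.5 times the counting error (chi-square per gene, 22 pairs), so no library was counted as a duplicate.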

Additional observations from a re-analysis of the deposited data

Results flagged for a closer look

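In 3 of the 51 groups of values examined, the most extreme mouse lay farther from the others than Dixon's 95% limit, where chance gives about 1 in 20. *H2-Aa* was 2.51 CPM in LPS-CPD-4645 mouse 4 and 1.43 to 1.54 CPM in the others of its group. *Cd74* was 3.31 CPM in sham-vehicle mouse 4 and 5.05 to 5.38 CPM in the others. That library also had the highest mitochondrial share, 12.7%, and the lowest *H2-Aa* and *H2-Ab1* of its group. *Icosl* was 30.3 CPM in LPS-vehicle mouse 2 and 17.1 to 19.2 CPM in the others.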

How the results depend on the processing

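The count of class II genes past the threshold after LPS was 1 in every alternative that kept all mice and without the libraries of lowest total, and 0 to 1 over the 13 fits that left out a mouse. It was 0 in the other comparisons throughout. Over all genes, a mean count of at least 50 moved the count for LPS-CPD-4645 against LPS-vehicle from 1019 to 632 (123 higher, 509 lower), and it took *H2-Eb1* and *H2-DMb1* out of the test. Scaling by library totals alone moved the median of all genes by about 0.10 after LPS (to 0.10 from -0.00065) and turned the small differences of *H2-Aa* (0.026) and *H2-DMa* (0.069). *H2-DMa* after LPS was also on the other side of 0 without the libraries of lowest total (0.012). With a mouse left out, log2 fold changes after LPS ranged from -0.21 to 0.13 for *H2-Aa*, from -0.099 to 0.022 for *H2-DMa* and from -0.11 to 0.19 for *H2-Eb1*, and from -0.27 to 0.16 for *H2-DMb1* in LPS-CPD-4645 against sham-vehicle. None of these had passed, and the cause was not tested. Replicate numbers did not pair the mice: of 12 pairs, 1 had a correlation of deviations above 0.1 (-0.035 to 0.11), and 6 of 12 mice matched their own number best. With the replicate block, *Irf8* after LPS was 0.99, under 2-fold, and counts of all genes were 972, 939 and 1882 against 981, 1019 and 1917. In that fit *H2-DMa* against LPS-vehicle had an adjusted p of 0.0906. Depth limits *Ciita*, *H2-DMb1*, *H2-Eb1* and *Cd80*, whose lowest libraries held under 10 reads.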
